A study of Mus musculus with 75 samples.

Results

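The gene Isl1 was examined through a window of mouse chromosome 13, from 116.9 to 117.3 Mb (mm9), that holds the gene and its flanks. Every region of the deposited H3K27ac and ATAC tables that overlapped the window was taken, which gave 10 of 126368 H3K27ac regions and 4 of 48634 ATAC regions. The window was selected on the difference between the sorted nuclei in these same libraries, so that difference is described below without a test. Only the effects of the treatments were tested. The regions are numbered by position, K1 to K10 for H3K27ac and A1 to A4 for ATAC. The deposited tables hold positions without gene names. The exons and start site of Isl1 were not placed in mm9 here, so no region is called its promoter, exon or intron.

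ISL1 is a transcription factor with LIM domains and a homeodomain. It acts in the development of motor neurons, heart, pancreas and parts of the hypothalamus, and in the arcuate nucleus it is needed for neurons that express Pomc, the gene of the precursor of melanocortin peptides that restrain feeding. H3K27ac is a histone acetylation found at active promoters and enhancers, and ATAC-seq reads where a transposase can enter the chromatin. Long stretches of H3K27ac often cover genes of transcription factors that define a cell type.

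H3K27ac ChIP-seq and ATAC-seq were made from hypothalamic nuclei of mice of genotype LepRcre/+; SUN1-sfGFP/+, in which Cre driven from the leptin receptor gene turns on a GFP tag of the nuclear envelope. All groups, controls included, carried both alleles. Nuclei from pooled hypothalami were sorted into GFP-positive, labelled as positive for the long leptin receptor LepRb, and GFP-negative. The 4 treatments were feeding without restriction (Fed) and a fast of 36 h with injections at 12, 24 and 34 h in each of the other groups. Fast received saline at each time. Lep2 received saline at 12 and 24 h and leptin at 5 mg/kg at 34 h, with a label of 2 hours. Lep24 received leptin at 5 mg/kg at each time, with a label of 24 hours. The titles of Fed carry the same injection code as those of Fast (SSS), but no injection times were recorded here for Fed. Each assay had 2 libraries for each treatment and sort, 16 in all. The ChIP used 300000 to 540000 nuclei. GFP marks nuclei by Cre, in whatever cell types the driver is or was active, and the GFP-negative nuclei are a mixture of the remaining cells. The sorted cell types were not checked against marker genes here, because the region tables name no genes and the gene tables used are of a different build. Whether the 2 replicates of a group are separate pools is not stated in the labels. The p-values therefore cover only the variation between the libraries at hand, and this may be technical.

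All values are the authors' normalized signal per region, and the read depth behind them is unknown. Between replicates, r of log2 signal across regions was 0.88 to 0.966 for H3K27ac and 0.798 to 0.911 for ATAC. In H3K27ac, 6 libraries stood apart by a summed mitochondrial signal above 5000. They were the first replicates of every treatment except Fast, GFP-positive and GFP-negative alike. The mitochondrial share of signal was 0.075 to 0.238% in these and 0.0102 to 0.0384% in the other 10 libraries. No Fast library was among the 6, so each comparison with Fast partly sets these libraries against the others.

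The promoter of Isl1 is shown because it is the sequence of the locus at hand, from RefSeq (GRCm38.p6, minus strand), and because all 14 regions lie in the window around this gene. The line gives the 250 bases before the start of transcription, 5′ to 3′ on the strand of the gene. Capitals mark 1 E-box (CANNTG) and 2 CCAAT boxes.
Isl1 promoter: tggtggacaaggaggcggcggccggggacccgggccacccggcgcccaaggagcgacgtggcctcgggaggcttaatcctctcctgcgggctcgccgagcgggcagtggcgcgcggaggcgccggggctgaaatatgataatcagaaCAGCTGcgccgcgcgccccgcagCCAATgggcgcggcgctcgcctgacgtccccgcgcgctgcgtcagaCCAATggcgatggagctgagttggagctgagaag

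Together with the 50 bases after the start, the promoter window of 300 bases had a GC content of 69.0%, against a median of 52.7% over 32851 promoters of that length. It held 37 CpG dinucleotides, against a median of 7, and more than 94.4% of the promoters. An E-box on either strand was present in 72.3% of all promoters and a CCAAT box in 37.4%. The CCAAT boxes, bound by the factor NF-Y among others, were searched for after the sequence had been seen. The homeodomain word TAATTA, its variant with the ending TAATTG, and a further variant written CTAATG gave 0 matches here, on either strand, and at least 1 match in 18.4% of promoters. A match is a description of the letters and not a bound site. In the order of genes in the same assembly, the nearest protein-coding neighbours of Isl1 are Pelo and Parp8, and the nearest genes of any type are the pseudogene Rpl34-ps2 and the long noncoding RNA 4930435F18Rik.

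One long acetylated region dominated the window. K6 ran from 117081229 to 117106225, a length of 24997 bp, and held 83.2 to 91.7% of the H3K27ac signal of the window in the 16 libraries. Its mean signal was 1008 in all and 40.3 per kb. K5 (117079456 to 117081228) and K7 (117106226 to 117108586) touched it on either side and carried 9.93 and 8.63 per kb. Among 9296 H3K27ac regions of at least 10 kb, whose median was 18.9 per kb, 340 had more signal per kb than K6 and 1552 were longer.

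The other H3K27ac regions were short. K8 (117124648 to 117127140) lay beyond K7 and carried 13.8 per kb. K2, K3 and K4 formed a touching chain from 116990838 to 116992694, in which K3 was the longest piece with 18.3 per kb. K1 (116960784 to 116961708) had 12.3 per kb, and the touching pair K9 and K10 (117204404 to 117205382) had 16.1 and 15.5 per kb. Touching regions are pieces of a stretch and are not independent of each other. All 10 H3K27ac regions covered 8.85% of the window and the 4 ATAC regions 0.81%.

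Most of the open chromatin, 3 of 4 ATAC regions, sat within K6. A1 (117083547 to 117084334), A2 (117087318 to 117087969) and A3 (117099320 to 117100462) lay inside K6, at 2318, 6089 and 18091 bp from its lower end. A4 (117125885 to 117126538) lay inside K8. All 4 ATAC regions thus overlapped H3K27ac, as did 83.1% of ATAC regions in the whole table. Of the 10 H3K27ac regions, 2 held an ATAC region, a share of 20%, against 24.2% of all H3K27ac regions. The 3 ATAC regions in K6 equal the upper quartile of the 1372 H3K27ac regions of 20 to 30 kb, whose median was 2. A3 was the strongest, with 26.2 per kb, ahead of A1 with 19.3, A4 with 18.7 and A2 with 14.3.

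**Figure D1:**
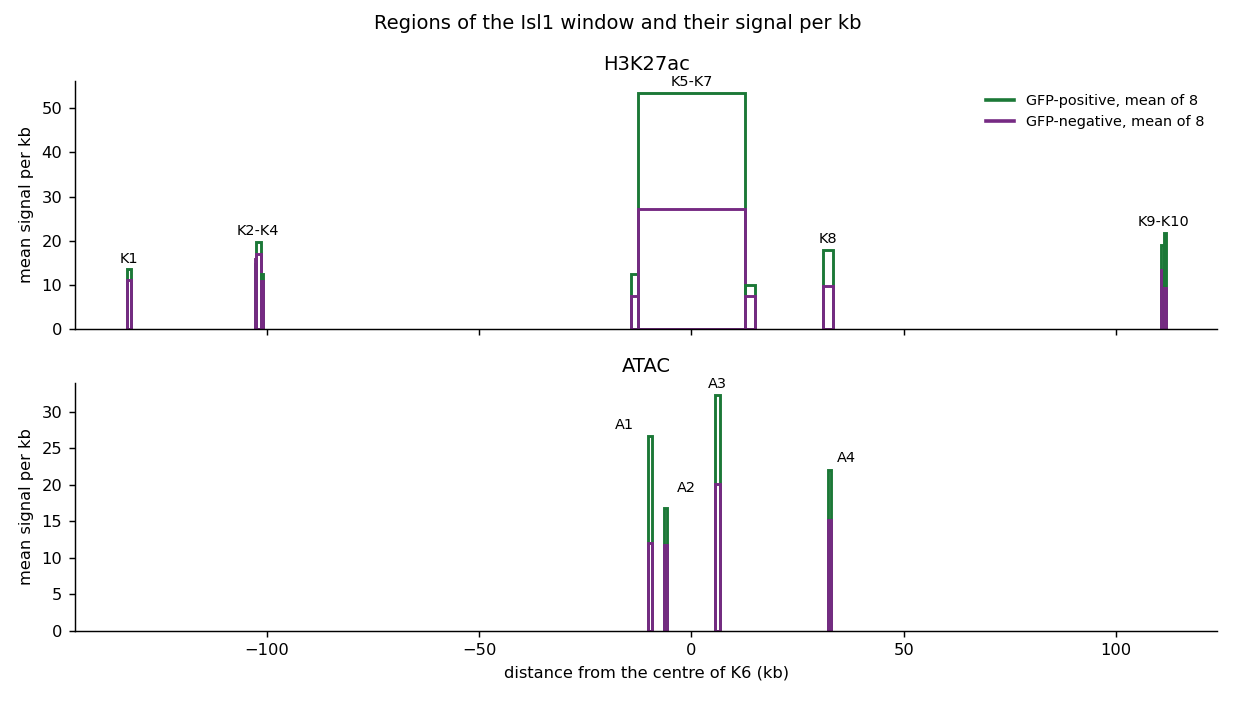
Mean normalized signal per kb (vertical axes) of each H3K27ac region (upper panel) and ATAC region (lower panel) against distance in kb from the centre of K6, with outlines for the mean of 8 GFP-positive (green) and 8 GFP-negative (purple) libraries. K6 is the broad block in the middle, at 24997 bp, with A1, A2 and A3 inside it and A4 inside K8.

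The window was chosen by how the 2 sorts differ, and the following values describe that choice. At K6 the GFP-positive libraries read 1387.1 and 1440.2 in Fed, 1319.1 and 1501.0 in Fast, 1096.1 and 1394.1 in Lep2, and 1118.5 and 1448.6 in Lep24. The GFP-negative libraries read 634.3 and 775.0 in Fed, 714.5 and 725.8 in Fast, 611.5 and 677.8 in Lep2, and 618.6 and 668.1 in Lep24. The lowest GFP-positive library was above the highest GFP-negative one, and no treatment closed the gap. The means were 1338 ± 152 and 678 ± 57.3 (SD, n = 8 each), a ratio of 1.97 and a log2 difference of 0.98 on the log2(signal + 1) scale, which is used for every difference here. Libraries were also set side by side in 8 pairs that shared treatment and number, where the difference ran from 0.84 to 1.13. In bulk sorted nuclei, more acetylated cells and more acetylation per cell cannot be told apart.

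K6 kept this difference in every treatment. The log2 difference was 1.01 in Fed, 0.97 in Fast, 0.94 in Lep2 and 0.98 in Lep24. The 6 libraries that stood apart read lower in both sorts, with means of 1201 ± 162 and 621 ± 11.7 (n = 3 each), against 1421 ± 68.3 and 712 ± 42.6 in the other 10 (n = 5 each). The difference between sorts was 0.94 within the 6 and 1.00 within the other 10.

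A1, near the lower end of K6, had the largest ratio between sorts of the ATAC regions. Its GFP-positive libraries read 28.3 and 18.1 in Fed, 18.9 and 19.7 in Fast, 22.3 and 13.4 in Lep2, and 30.6 and 17.1 in Lep24. Its GFP-negative libraries read 8.8 and 4.9 in Fed, 13.1 and 5.7 in Fast, 10.8 and 13.2 in Lep2, and 10.3 and 8.7 in Lep24. The sorts did not overlap, but only narrowly, with 13.4 as the lowest GFP-positive and 13.2 as the highest GFP-negative value, both from Lep2. The means were 21.1 ± 5.79 and 9.44 ± 3.06 (SD, n = 8), a log2 difference of 1.10.

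A3, the strongest open site, separated the sorts with less spread. Its GFP-positive libraries read 41.4 and 37.5 in Fed, 33.7 and 43.6 in Fast, 38.6 and 31.0 in Lep2, and 38.2 and 31.7 in Lep24. Its GFP-negative libraries read 18.6 and 25.5 in Fed, 21.6 and 23.6 in Fast, 24.2 and 26.5 in Lep2, and 22.5 and 21.6 in Lep24. All 8 GFP-positive values lay above all 8 GFP-negative values. The means were 37.0 ± 4.51 and 23.0 ± 2.5, a log2 difference of 0.66. Because the sorts did not overlap, the sign was necessarily the same in 8 of 8 pairs.

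A2 and A4 overlapped between the sorts. A2 had GFP-positive values of 6.9 to 14.6 (median 11.3) and GFP-negative values of 2.5 to 10.8 (median 7.70), and was higher in GFP-positive in 6 of 8 pairs. A4 had 4.6 to 25.7 (median 15.95) and 5.7 to 15.4 (median 10.1), was higher in 6 of 8 pairs, lower in 1 and tied in the remaining one. In Lep2 alone A4 was lower in GFP-positive, by a log2 difference of −0.47, and in Fed alone A2 was level, at −0.02.

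**Figure D2:**
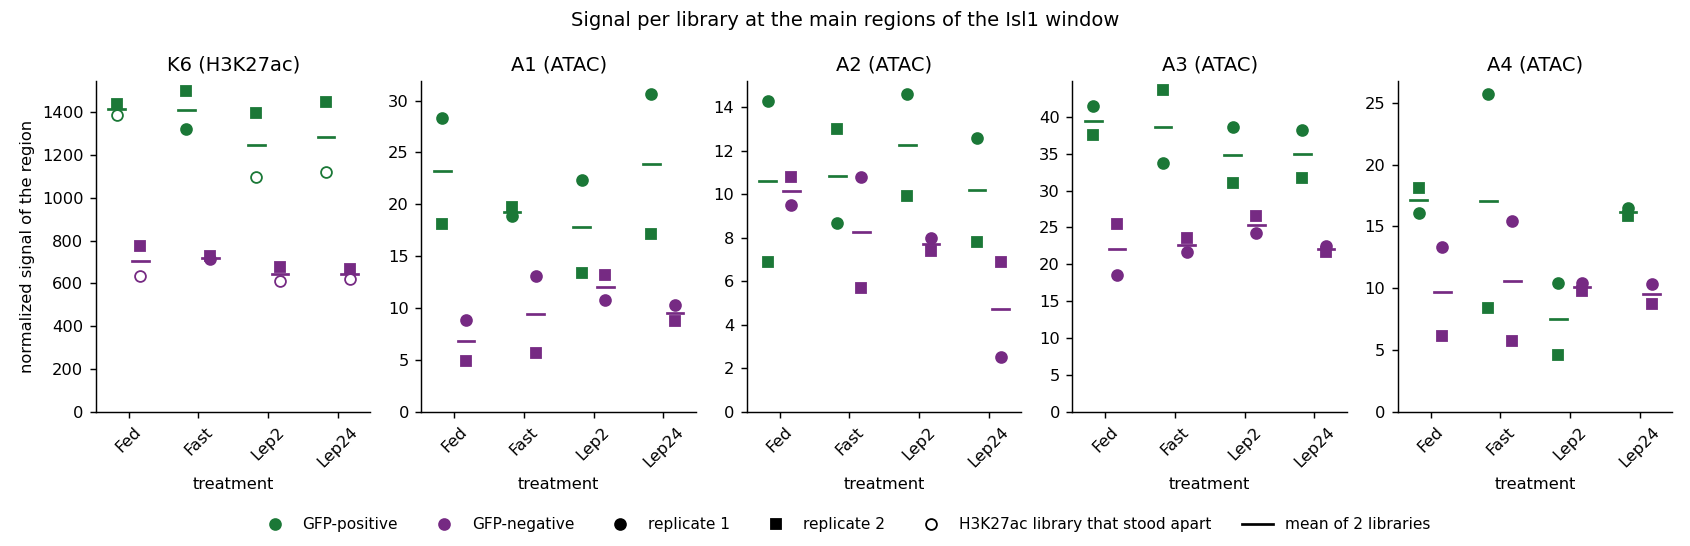
Normalized signal (vertical axes, from 0) at K6 and A1 to A4 in each library by treatment, with GFP-positive in green, GFP-negative in purple, replicate 1 as circles, replicate 2 as squares and the mean of 2 libraries as a line. K6, A1 and A3 show no overlap between the sorts, and the open symbols at K6 are the 6 H3K27ac libraries that stood apart.

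Among the short H3K27ac regions, K8 and K10 had the widest ratios. K8 had a GFP-positive mean of 44.6 ± 11.5 and a GFP-negative mean of 24.4 ± 6.39, a log2 difference of 0.86 that was 0.31 within the 6 libraries that stood apart and 1.19 within the other 10. K10, with 7.94 ± 3.48 and 3.35 ± 1.76, was higher in GFP-positive in 8 of 8 pairs, yet its values from 3.1 to 13.2 and from 1.3 to 6.6 overlapped. The closest pair, replicate 1 of Lep2, read 3.3 against 3.2. K10 lay near the floor. Its GFP-negative values of 1.3 and 2.9 in Fed, and 1.4 and 2.9 in Lep24, were the smallest above 0 in their libraries. K5 had a difference of 0.70, which was 0.15 within the 6 libraries and 1.02 within the other 10. K9, at 0.47, was −0.25 in Lep2 alone, and K7, at 0.44, ran from −0.37 in Lep24 alone to 1.12 in Fast alone. K3, K1, K4 and K2 had differences of 0.26, 0.20, 0.17 and −0.11, and each took both signs over the single treatments, library sets and scales.

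K1, the lowest in position, depended on which libraries were read. Within the 6 that stood apart its GFP-positive mean was 6.63 ± 1.59 and its GFP-negative mean 10.3 ± 3.24. Within the other 10 it read 16.02 ± 2.80 and 10.2 ± 3.14. The difference between sorts was −0.54 and 0.64 in these sets, so the 2 sets gave opposite directions.

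The sorts did not overlap, with GFP-positive higher, at 1 of 10 H3K27ac regions (K6), beside 0.607% of the whole table, and at 2 of 4 ATAC regions (A1 and A3), beside 0.617% of the whole table. With GFP-positive lower, 0 regions of the window were free of overlap, beside 1.49% of H3K27ac and 0.876% of ATAC regions in the whole tables. Since the window was selected on this contrast, these counts describe the choice. The nearest regions outside the window give its surroundings. H3K27ac at 116642658 to 116644420 read 35.1 against 20.4 (GFP-positive against GFP-negative), and at 117421504 to 117422764 it read 22.3 and 14.4. ATAC at 116877615 to 116878074 read 9.4 and 9.5, and at 117494503 to 117495068 it read 8.54 and 7.59.

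**Figure D3:**
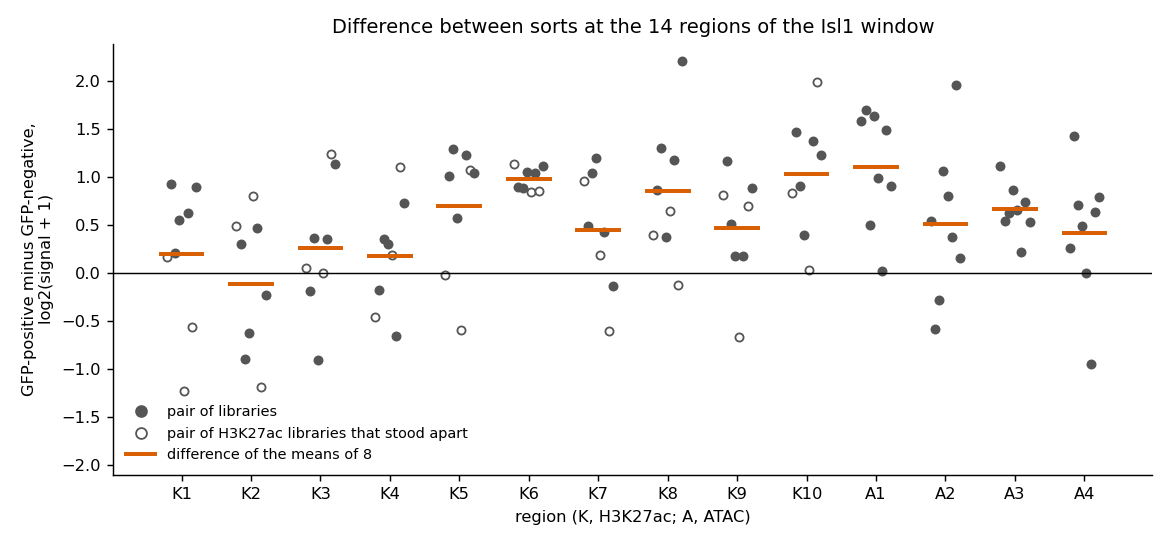
GFP-positive minus GFP-negative log2(signal + 1) (vertical axis) at each of the 14 regions, with a point for each of 8 pairs of libraries that share treatment and number and a bar for the difference of the means. The pairs of K6 lie between 0.84 and 1.13, while those of the short regions spread more widely and often on both sides of 0.

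K6 was set against other broad regions of the mark. Among the 9296 H3K27ac regions of at least 10 kb, the median difference between sorts was −0.02, with 5% of regions below −0.84 and 5% above 0.38. Only 1 of these broad regions had a larger difference than K6, on chromosome 4 from 101353935 to 101374105. Its means were 365 ± 35.4 (GFP-positive) and 192 ± 95.6 (GFP-negative), with a log2 difference of 1.07. That region had a mean signal of 279, against 1008 at K6. The third, on chromosome 14 (41514227 to 41524725), had a difference of 0.96. Among H3K27ac regions of any length, 561 of 126368 had a larger difference than K6. Among ATAC regions, 2571 of 48634 had a larger difference than A3. The window was selected on this difference, so the ranks describe the choice.

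**Figure D4:**
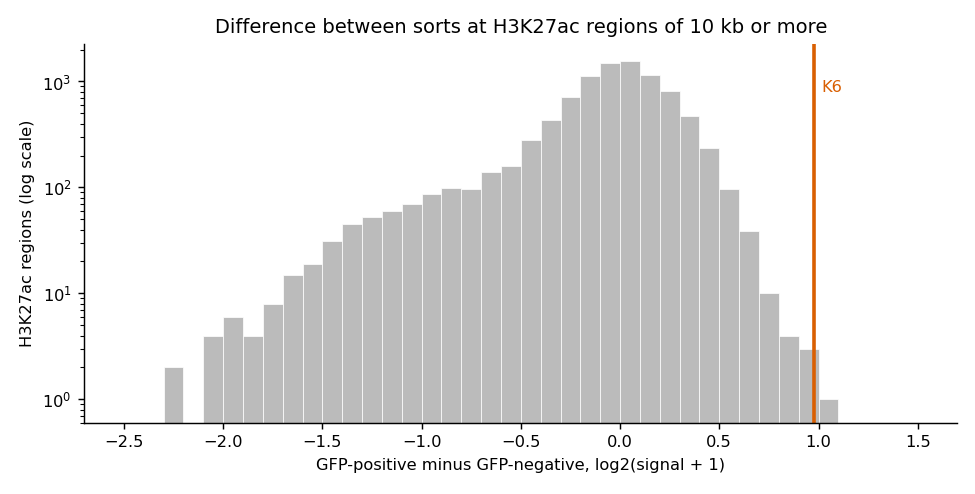
Number of H3K27ac regions of at least 10 kb (vertical axis, log scale) by GFP-positive minus GFP-negative log2(signal + 1) in bins of 0.1 (horizontal axis), with the value of K6 as a line at 0.98. The line lies near the upper end, where 1 of 9296 regions exceeds it. The window was selected on this difference.

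The regions whose pattern over the 16 libraries was most like that of K6 lay on chromosomes 4, 7, 11 and 6. The Pearson r of log2(signal + 1) was highest, at 0.982, for chr4:151995307-152003919, followed by chr7:107442262-107462271 with 0.980 and chr11:97807530-97825241 with 0.976. Next came chr6:5349686-5366051 with 0.975 and chr4:127311225-127320172 with 0.974. All 5 had more signal in GFP-positive nuclei, at log2 differences of 0.50 to 0.90. Likeness to A3 was highest for chr6:33677407-33678134 with 0.928, then chr4:101358806-101359463 with 0.927 and chr1:33953719-33954053 with 0.905. After these came chr15:73268193-73269070 and chr16:35252592-35254075, both with 0.898. The ATAC region on chromosome 4 lies inside the single broad H3K27ac region that exceeded K6. These r share their libraries and were picked as the highest of each table, so they describe likeness only.

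The order of the group means of K6 was set first by sort. The GFP-positive means were 1414 ± 37.5 in Fed, 1410 ± 129 in Fast, 1284 ± 233 in Lep24 and 1245 ± 211 in Lep2 (SD, n = 2), and each overlapped its neighbour in this order. The GFP-negative means followed after a gap, with 720 ± 7.99 in Fast, 705 ± 99.5 in Fed, 645 ± 46.9 in Lep2 and 643 ± 35.0 in Lep24, again with overlap between neighbours. Both GFP-negative leptin groups nevertheless lay wholly below Fast, while Fed overlapped every other GFP-negative group. A3 had the same order of treatments in GFP-positive nuclei, from 39.5 ± 2.76 in Fed and 38.7 ± 7.0 in Fast to 35.0 ± 4.60 in Lep24 and 34.8 ± 5.37 in Lep2, with overlap throughout. In GFP-negative nuclei A3 read 25.4 ± 1.63 in Lep2, with no overlap with Fast at 22.6 ± 1.41, and 22.1 in both Fed and Lep24. Separation of 2 libraries from 2 others, here and below, arises often by ordering alone. Its share over all regions was not counted, so it is only a description.

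Whether fasting or leptin changed the locus was tested with limma over 113732 H3K27ac and 43771 ATAC regions, in each sort, as the mean of both sorts and as the difference between sorts. Regions with mean signal in the lowest 10% were left out, so 7 of 10 H3K27ac regions of the window were tested (K2, K4 and K10 were not) and 4 of 4 ATAC regions. In these 24 comparisons 0 regions of the window passed an adjusted p of 0.05, and 0% of the tested regions of either table did. At an unadjusted p under 0.05 limma gave 2177 to 8564 H3K27ac regions and 653 to 3434 ATAC regions per comparison. Of the window, 6 of 84 H3K27ac results and 0 of 48 ATAC results were under that level, with 0 to 2 of 7 H3K27ac regions per comparison. These results are not separate, since the mean and the difference reuse the values of each sort and some regions touch. The smallest adjusted p of any region of the window was 0.57.

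K6 had the narrowest intervals of the H3K27ac regions. Fast minus Fed in GFP-positive nuclei was −0.01 (limma SE 0.20, 95% interval −0.43 to 0.42, adjusted p = 0.998) and 0.04 in GFP-negative nuclei (−0.39 to 0.46). Lep2 minus Fast was −0.19 (−0.61 to 0.24, adjusted p = 0.923) and −0.16 (−0.59 to 0.26). Lep24 minus Fast was −0.14 (−0.57 to 0.28, adjusted p = 0.942) and −0.16 (−0.59 to 0.26). No change of K6 was therefore detectable, and changes of up to about these bounds are allowed by the spread. The changes in GFP-positive and GFP-negative nuclei differed by −0.04 for Fast minus Fed (−0.65 to 0.56), by −0.03 for Lep2 (−0.63 to 0.58) and by 0.02 for Lep24 (−0.58 to 0.62).

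Among the lower values of K6 after leptin were those of libraries that stood apart, all of them replicate 1. K6 was lower in replicate 1 than in replicate 2 in 8 of 8 groups, Fast included. Outside Fast, the set and the replicate number cannot be told apart, and the cause was not tested. In Lep2 and Lep24 GFP-positive nuclei the 1096.1 and 1118.5 belonged to that set, while the 1394.1 and 1448.6 lay within the range of Fast. In GFP-negative nuclei the leptin libraries outside that set, at 677.8 and 668.1, also read below both Fast libraries, at 714.5 and 725.8. Without the 6 libraries, Lep2 minus Fast was −0.01 (SE 0.08) and Lep24 minus Fast 0.04 (SE 0.08) in GFP-positive nuclei, and −0.09 and −0.11 in GFP-negative nuclei. Each Fed, Lep2 and Lep24 group then had 1 library, which is assumed to vary like the Fast libraries. That library was replicate 2, set against the mean of replicates 1 and 2 of Fast. In that fit limma called 1 to 854 H3K27ac regions of the whole table in 7 of 12 comparisons, and 0 of the window.

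A1, A2 and A4 rested on coarse values, and their intervals were wide. At A1, Fast minus Fed was −0.22 (95% interval −1.08 to 0.64), Lep2 minus Fast −0.15 (−1.01 to 0.71) and Lep24 minus Fast 0.24 (−0.63 to 1.10) in GFP-positive nuclei. At A3 they were −0.04 (−0.58 to 0.50), −0.14 (−0.68 to 0.39) and −0.14 (−0.67 to 0.40). The smallest p of any ATAC region of the window was that of A4 for Lep2 minus Fast in GFP-positive nuclei, where 25.7 and 8.4 in Fast stood against 10.4 and 4.6 in Lep2. The change was −0.99 (SE 0.50, limma adjusted p = 0.663), and the groups overlapped.

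As a measure of sampling, the distinct signal values above 0 up to that of a region were counted. There were 2 to 23 such values at A4, 2 to 17 at A2, 3 to 45 at A1, 17 to 57 at A3 and 363 to 2493 at K6. At K10 there were 1 to 14. The Fast GFP-positive replicate 2 of ATAC had the widest steps between values, up to 2.30 units of signal at A4. Without Fast GFP-positive replicate 1, limma called 482 to 1559 of 43771 ATAC regions in 9 comparisons with Fast, and without Lep2 GFP-positive replicate 1 it called 43 to 413 in 3. The single library left in the group is assumed there to vary like the others. Of the 4 ATAC regions of the window 0 were called in either case.

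The short H3K27ac regions gave the 6 results under an unadjusted p of 0.05, and none passed adjustment. K1 read 7.5 and 12.1 in Fed and 16.1 and 19.0 in Fast in GFP-positive nuclei, and 6.6 and 5.9 against 13.8 and 12.7 in GFP-negative nuclei. Both Fast libraries were above both Fed libraries in each sort, without a count of how often this occurs over all regions. The mean change was 0.89 (limma adjusted p = 0.637), and 0.77 (adjusted p = 0.521) without the 6 libraries.

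K7, the shoulder above K6, read 9.8 and 11.2 in Fast GFP-negative nuclei, 29.6 and 15.7 in Lep2 and 29.8 and 15.8 in Lep24. In both leptin groups the higher value came from a library that stood apart. The changes from Fast were 0.98 (limma adjusted p = 0.722) and 0.99 (adjusted p = 0.714), and 0.54 and 0.55 without the 6 libraries. In GFP-positive nuclei K7 read 21.2 and 27 in Fast and 19.3 and 14.3 in Lep24, and the change differed between sorts by −1.49 (SE 0.57, limma adjusted p = 1).

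K3, the middle of the touching chain, read 23.7 and 32.2 in Fast and 8.4 and 12.7 in Lep24 in GFP-negative nuclei. These groups did not overlap, and the change was −1.34 (SE 0.48, limma adjusted p = 0.714), or −1.06 without the 6 libraries. In GFP-positive nuclei K3 read 30.8 and 16.7 in Fast and 21.1 and 29.0 in Lep24, with overlap. K9 changed by −0.84 over both sorts from Fast to Lep24 (limma adjusted p = 0.576), and by −0.57 without the 6 libraries. K8 depended on the set of libraries. From Fast to Lep24 it changed by −0.45 in GFP-negative nuclei, and by −1.03 without the 6 libraries. Of its Lep24 values there, 29.8 and 12.7, only 12.7 was then left. The change at K8 differed between sorts by 0.20, and by 1.37 without the 6 libraries.

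**Figure D5:**
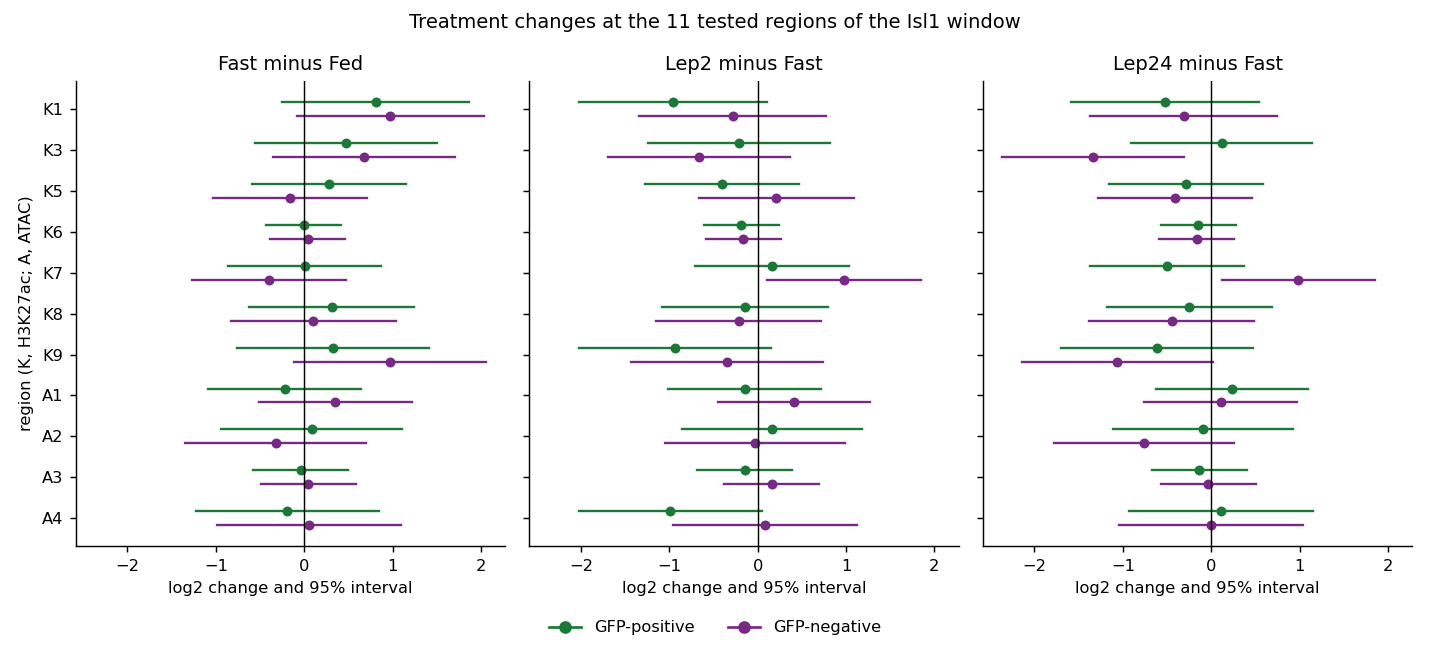
Log2 change with its 95% limma interval (horizontal axes) of the 11 tested regions for Fast minus Fed, Lep2 minus Fast and Lep24 minus Fast, in GFP-positive (green) and GFP-negative (purple) nuclei. Nearly all intervals include 0; the exceptions, K3 and K7 in GFP-negative nuclei, had adjusted p of 0.714 to 0.722.

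The signs of the changes at the 7 tested H3K27ac regions, none of which passed the test, are given as a description. From Fed to Fast, 6 of 7 had positive changes in GFP-positive nuclei (median 0.31) and 5 of 7 in GFP-negative nuclei (median 0.11), where 48.9% and 49.5% of all tested regions were positive with medians of −0.01 in both. From Fast to Lep2, 6 and 5 of 7 were negative (medians −0.21 and −0.21), and from Fast to Lep24 6 and 6 of 7 (medians −0.29 and −0.41), beside 48.7 to 50.0% of all regions. These counts changed without the 6 libraries that stood apart. From Fed to Fast 4 of 7 were then positive in each sort, and from Fast to Lep24 in GFP-positive nuclei only 3 of 7 were negative, with a median of 0.04. From Fast to Lep2 6 of 7 were negative in each sort, and from Fast to Lep24 6 of 7 in GFP-negative nuclei. All 3 comparisons use the same Fast libraries, none of which stood apart, so an opposite sign is not a separate result. The ATAC regions showed 1 to 3 of 4 in either direction.

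The authors' deposited table gives its own fold changes. For GFP-positive against GFP-negative it lists a log2 fold change of 0.99 for both K6 and K7, and of 0.81 for A3. It lists 1.335 for A1 and −0.11 for K3. Which treatments this contrast covers was not stated in the sources used. As the authors also list interactions of leptin with sort, it may hold only for the groups without leptin. It is therefore not equated with the difference over all treatments given above. That difference was 0.98 at K6 but 0.44 at K7, where the sorts overlapped. It was 1.10 at A1, and at K3 it was 0.255, of the opposite sign to the authors' value. At K7 it ran from −0.37 in Lep24 alone to 1.12 in Fast alone. All these values are of the difference between sorts, on which the window was selected, and are a description too. For its leptin comparisons within each sort, and for the interaction of leptin with sort, the authors' deposited table lists an FDR of 1 at all 14 regions.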

How the data were processed

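Of 75 samples, 16 H3K27ac and 16 ATAC libraries were used. Left out were the RNA samples (23), ChIP inputs (16) and ATAC inputs (4). Per the file headers, the authors deposited normalized signal per region and library, variance-stabilized values (a score, used only as an alternative), and log2 fold changes with p-values and FDR of their own comparisons, quoted as theirs. For the normalization method, the sources used here give nothing. The submitters' processing notes name mm9 and, with no step given for any, Bowtie2 2.2.6, Bowtie 1.2, MACS2, DESeq2 1.16.1, HTSeq 0.6.0, STAR 2.5.2b and CASAVA 1.8. Each library was placed by its title and labelled treatment and sort. Coordinates are mm9, 1-based (deposited starts raised by 1).

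Regions in the lowest 10% of mean signal (below 5.96 for H3K27ac and 5.44 for ATAC) were left out. Values were taken to log2(signal + 1), which understates changes of low regions. A mean per group of treatment and sort was fitted with limma 3.58.1 (R 4.3.3) over all 16 libraries of an assay, with an intensity-dependent prior. P-values are two-sided and Benjamini-Hochberg adjusted over all regions tested in a comparison. The fit was run on simulated data with independent normal noise. That noise lacked the shared deviations of libraries and the coarse low values, so it gives no measure of power at the window. Tables and plots used Python 3.11.15, pandas 2.3.3 and matplotlib 3.10.9. Alternatives were quantile normalization, the variance-stabilized values, pseudocounts of 0.1 and 5, no filter, a replicate block, only the groups compared, the 6 H3K27ac libraries with mitochondrial signal above 5000 as a term or left out, and each library left out.

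Described one by one were the ATAC regions, the 10 H3K27ac regions of highest mean signal (here all), the region of smallest p per assay and any called region. Likeness was taken over the regions tested. The window, the lists and the rules were chosen with earlier results of these data known.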

Additional observations from a re-analysis of the deposited data

How the results depend on the processing

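The number of window regions called was 0 in each of the 24 treatment comparisons and was 0 in all 336 counts under the alternatives, with a lowest adjusted p of 0.142 among 1884 values. Over the whole tables, where limma called 0 regions, some alternatives did call regions: 1 to 854 in H3K27ac without the 6 libraries that stood apart, 482 to 1559 in ATAC without Fast GFP-positive replicate 1 and 43 to 413 without Lep2 GFP-positive replicate 1. The ATAC fits gave 3 to 8 with the replicate block, 2 to 5 with no filter and 1 to 5 with a pseudocount of 0.1, in the comparisons with any call. Leaving out any other single library gave at most 28. Of those values 171 had the other sign than the main value. The difference between sorts at K6 ran from 0.86 to 1.07 over other scalings, treatments and sets of libraries, and from 0.95 to 1.02 with each library left out. At A3 it ran from 0.62 to 0.69 with each library left out. On the authors' variance-stabilized scale the difference was 0.33 at A3, 0.41 at A1 and 0.29 at K8. That scale is a score with other units than log2(signal + 1), so the sizes cannot be compared directly. Same-numbered H3K27ac libraries of Fed, Lep2 and Lep24 deviated together (r of deviations 0.342 to 0.55 in 15 pairs of groups, in which replicate 1 is always of the set that stood apart), but not where a Fast group was in the pair (−0.164 to 0.024 in 13 pairs). In ATAC r was 0.024 to 0.176. K6 was lower in replicate 1 than in replicate 2 in 8 of 8 groups. Since not every pair exceeded 0.1, and no label ties the numbers, the numbers were not taken to pair the samples. With the replicate block 0 window regions were called, and the lowest adjusted p was 0.142 (K9, Lep24 minus Fast, both sorts). As a paired mean over 8 pairs, K6 differed by 0.98 and A3 by 0.66. With 8 libraries in each sort this equals the unpaired difference by arithmetic, so it is no check of the pairing. The unknown depth limits the short regions most, where single steps of signal are a large part of the value.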
